A study of Mus musculus with 6 samples.

Results

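Fibroblast growth factor (FGF) genes were examined in bulk RNA-seq of mouse kidney and ureter at PN1, with and without Ahnak. The genes were chosen by symbol, with earlier results of these data known. They were every Fgf gene with a number, Fgfr1 to Fgfr4, and Fgfrl1, Kl, Klb, Fgfbp1, Fgfbp3, Frs2, Frs3 and Dusp6. This gave 34 of the 24532 genes in the deposited table, of which 22 were ligand genes, 5 were receptor genes and 7 encoded co-receptors, carriers, docking proteins or a phosphatase. The 6 libraries came from kidney (2 of Ahnak KO and 2 of WT mice) and ureter (1 of each genotype). In the Ahnak KO mice exon 5 of Ahnak was disrupted, and Ahnak is a large scaffold protein linked to calcium handling. Each RNA sample was made from 2 to 4 organs per the methods, with no number given by library, so a library may pool organs. The methods also speak of 2 biological replicates, and no source used here says whether these were separate litters. P-values measure only the spread between these samples. The titles of both ureter samples call them kidney, while their source label says ureter.

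FGF ligands are secreted proteins that bind receptor tyrosine kinases together with heparan sulfate on the cell surface. The docking proteins FRS2 and FRS3 pass the signal to the RAS-MAPK cascade, and induced inhibitors such as Dusp6 and the Sprouty genes limit it. In the developing kidney Fgf9 and Fgf20 maintain nephron progenitors, Fgf8 is needed for nephron formation, and Fgf7 and Fgf10 are made by mesenchyme and act on neighbouring epithelium through Fgfr2. The endocrine FGFs act at a distance and need a klotho protein as co-receptor, which for FGF23 in the kidney tubule is the product of Kl. Fgf11 to Fgf14 encode intracellular proteins that bind voltage-gated sodium channels and are not secreted.

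The libraries held between 36410246 and 66095616 counts, and the detection limit used, 3 counts in a library, lay between 0.0421 and 0.101 CPM (counts scaled to library size with edgeR's TMM factors). Such limits reflect counting error alone. Ahnak itself had 139 and 130 CPM in the KO kidneys, 183 and 189 CPM in the WT kidneys, 635 CPM in the KO ureter and 727 CPM in the WT ureter, so its transcript was counted in every KO library. The labels' tissues were checked against defining markers. All 11 ureter markers were higher and all 10 kidney markers were lower in ureter (edgeR, adjusted p under 0.05), and Slc34a1, Umod, Slc12a1, Slc12a3 and Nphs1 were listed at 0 in both ureter libraries. The ureter libraries also held striated muscle transcripts: the 8 muscle markers summed to 172 TPM (the authors' values scaled by gene length and depth) in the KO ureter and 471 TPM in the WT ureter, against 15.5 to 18.1 TPM in kidney. The 45S ribosomal precursor Rn45s took 8.06% of the counts in the KO ureter and 0.496% to 0.632% in the other libraries. One library, KO kidney replicate 1, stood apart with 2915 CPM of Xist, against 0.354 to 0.699 CPM in the others. Its 6 blood and immune markers summed to 1074 TPM, against 79.7 to 94.6 TPM in the other kidneys. Of that sum 1009 TPM was Hba-a1 alone, while Hbb-bt had 0 counts there. The same markers summed to 1550 TPM in the KO ureter and 391 TPM in the WT ureter. What these differences between libraries contributed to the FGF values was not tested.

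Of the 34 genes, 26 reached at least 1 TPM in some library. The other 8 (Fgf3, Fgf4, Fgf5, Fgf6, Fgf21, Fgf22, Fgf23 and Klb) stayed below 1 TPM in every library, with at most 36 counts, and Fgf6 and Fgf22 were listed at 0 throughout. In both ureter libraries 11 genes were listed at 0, and 9 of those had counts in some kidney library. Expression was thus spread over receptors, docking genes and a subset of ligands, as the plot of TPM by library shows.

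**Figure D1:**
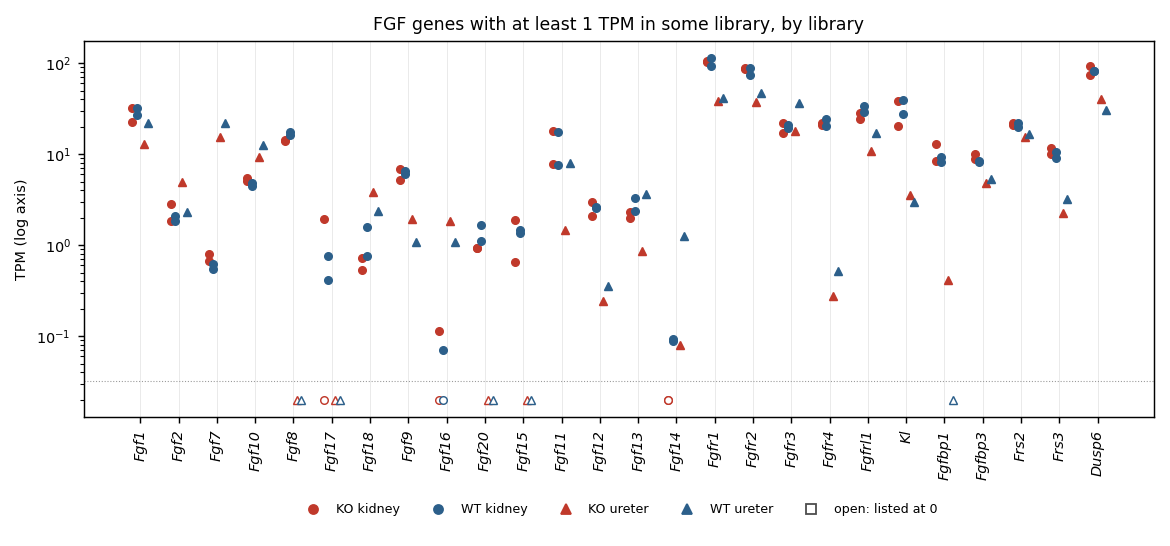
TPM on a log axis for the 26 FGF genes with at least 1 TPM in some library. Each point is 1 library (circles kidney, triangles ureter, red Ahnak KO, blue WT), and open symbols below the dotted line mark values listed at 0. The ureter points of Fgf7 stand above and those of Fgfr4, Kl and Fgf8 below all kidney points, while red and blue kidney points lie together for most genes.

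The stretches of 250 bases before the annotated starts of Fgf7, Fgf10, Fgfr4 and Kl are shown because these genes had the smallest adjusted p between the tissues among those with counts in all 6 libraries. They were taken from RefSeq on GRCm38.p6 and read 5′ to 3′ on the plus strand, the strand of each gene. Capitals mark matches on either strand to 7 short motifs searched: the Sp1 site GGGCGG, the forkhead site TAAACA, the nuclear receptor site AGGTCA, the TATA box TATAAA, the E-box CACGTG, the T-box site AGGTGT, and the HNF1 site. The windows lie at chr2:126034408-126034657 for Fgf7, chr13:118714449-118714698 for Fgf10, chr13:55152568-55152817 for Fgfr4 and chr5:150952357-150952606 for Kl.
Fgf7: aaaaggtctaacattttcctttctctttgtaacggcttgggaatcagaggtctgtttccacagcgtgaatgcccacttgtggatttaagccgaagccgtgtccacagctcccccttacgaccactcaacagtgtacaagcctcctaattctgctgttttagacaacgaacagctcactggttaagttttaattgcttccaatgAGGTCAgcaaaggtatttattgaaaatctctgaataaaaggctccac
Fgf10: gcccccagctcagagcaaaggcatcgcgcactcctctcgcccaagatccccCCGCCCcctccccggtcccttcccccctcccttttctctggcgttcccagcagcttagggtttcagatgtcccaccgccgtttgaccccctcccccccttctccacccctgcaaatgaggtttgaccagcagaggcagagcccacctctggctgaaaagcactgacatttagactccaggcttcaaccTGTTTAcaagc
Fgfr4: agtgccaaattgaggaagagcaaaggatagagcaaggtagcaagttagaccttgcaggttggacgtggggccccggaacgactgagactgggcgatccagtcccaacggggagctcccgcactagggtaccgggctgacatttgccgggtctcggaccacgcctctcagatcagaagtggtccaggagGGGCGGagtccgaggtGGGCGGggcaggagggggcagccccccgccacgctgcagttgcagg
Kl: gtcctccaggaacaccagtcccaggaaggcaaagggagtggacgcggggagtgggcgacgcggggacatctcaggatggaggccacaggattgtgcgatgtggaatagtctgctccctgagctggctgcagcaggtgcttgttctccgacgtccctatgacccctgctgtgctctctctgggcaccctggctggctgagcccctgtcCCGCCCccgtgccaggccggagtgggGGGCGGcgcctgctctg
The Fgf7 window held the nuclear receptor site 47 bases before the start and no Sp1 site. The Fgf10 window held a forkhead site, read as TGTTTA on the strand shown, 11 bases before the start, and an Sp1 site 199 bases before it. The windows of Fgfr4 and Kl, the genes lower in ureter, each held a pair of Sp1 sites within 62 bases of the start. The Sp1 letters were in 21 of the 34 windows found for FGF genes. These included windows of Fgf18 and Fgfr3, which were called higher in ureter. Among all 32851 RefSeq windows of this length, 32.7% held the Sp1 letters, 12.0% the forkhead letters and 14.0% the nuclear receptor site, so such matches are common. G and C made up 43.6% of the Fgf7 window, 61.2% of the Fgf10 window, 64% of the Fgfr4 window and 66.8% of the Kl window, against a median of 52.4% over all windows. The HNF1 site was in 0.0609% of all windows and in none of the 34 windows found for 27 of the 34 FGF genes. A match describes letters only and shows no binding.

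The first comparison asked how the FGF genes differ between ureter and kidney. Fgf7, Fgf10, Fgf16, Fgf18 and Fgfr3 were higher in ureter, and 13 genes were lower, among them Fgf8, Fgf9, Fgf15, Fgf20, Fgfr4, Fgfr1, Fgfr2 and Kl. Counts of all 6 libraries were fitted with terms for genotype and tissue (edgeR's quasi-likelihood test, 3 residual degrees of freedom). Of the 34 FGF genes 28 passed the filter on low counts, and 18 of these were called at an adjusted p under 0.05, while 45.0% of all 16873 genes tested were called, 21.4% higher and 23.7% lower. The median log2 fold change, ureter over kidney, was -0.93 over the 28 FGF genes and -0.08 over all genes. Both figures leave out genes that did not pass the filter, and no test of the list was made. With 1 ureter library per genotype, the fit assumes the same genotype difference in both tissues. In bulk tissue, fewer cells of a type and less RNA per cell cannot be told apart.

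Among the ligands made by mesenchyme, Fgf7 was 36.2-fold higher in ureter. It had 0.673 and 0.803 TPM in the KO kidneys, 0.551 and 0.621 TPM in the WT kidneys, 15.3 TPM in the KO ureter and 21.8 TPM in the WT ureter. The tissues did not overlap, and the log2 fold change was 5.18 (standard error, SE, 0.23, adjusted p = 2.44e-05 by edgeR). Fgf10, whose loss in mice prevents lung and limb formation, had 5.46 and 5.04 TPM in the KO kidneys, 4.48 and 4.80 TPM in the WT kidneys, 9.40 TPM in the KO ureter and 12.7 TPM in the WT ureter. Its log2 fold change was 1.54 (SE 0.16, adjusted p = 0.000564 by edgeR), again without overlap. Fgf10 thus had the higher level of the pair in kidney, and Fgf7 the higher level in both ureter libraries on the TPM scale. The other members of their subfamily were at or near 0: Fgf22 was listed at 0 throughout, and Fgf3 had at most 22 counts in a kidney library and 0 in both ureters.

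Ligands of the FGF8 and FGF9 subfamilies went both ways. Fgf8 had 454 and 444 counts in the KO kidneys and 638 and 487 counts in the WT kidneys, or 14.0 to 17.6 TPM, and 0 counts in both ureters. Against the limit of 3 counts per library, Fgf8 was at least 79.1-fold lower in ureter (adjusted p = 0.000102 by edgeR). Fgf18, known from bone and lung development, had 0.539 and 0.724 TPM in the KO kidneys, 1.57 and 0.751 TPM in the WT kidneys, 3.86 TPM in the KO ureter and 2.37 TPM in the WT ureter. Both ureters lay above all kidneys, with a log2 fold change of 2.27 (SE 0.60, adjusted p = 0.0223 by edgeR), but the call was lost in 5 of 14 alternative settings, including without KO kidney replicate 1, KO kidney replicate 2, WT kidney replicate 2 or the KO ureter in turn. Fgf17 had 0 and 94 counts in the KO kidneys, 24 and 37 counts in the WT kidneys and 0 in both ureters, and was not called (adjusted p = 0.106 by edgeR). It was called lower with DESeq2 (adjusted p = 0.0172) and without KO kidney replicate 1.

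Fgf9, a ligand of nephron progenitors and mesenchyme, had 6.90 and 5.18 TPM in the KO kidneys, 6.11 and 6.60 TPM in the WT kidneys, 1.96 TPM in the KO ureter and 1.09 TPM in the WT ureter. It was lower in ureter without overlap (log2 fold change -1.66, SE 0.31, adjusted p = 0.00649 by edgeR). Fgf20 had 39, 40, 54 and 70 counts in the 4 kidneys, or 0.933 to 1.68 TPM, and 0 in both ureters, at least 7.99-fold lower. Fgf16 moved the other way, with 0 and 11 counts in the KO kidneys, 0 and 6 counts in the WT kidneys, 110 counts in the KO ureter and 96 counts in the WT ureter. It reached 1.86 and 1.07 TPM in the KO and WT ureters and was called higher (log2 fold change 5.26, SE 1.31, adjusted p = 0.0186 by edgeR), and the call was lost when either ureter library was left out. The endocrine ligand Fgf15, the mouse counterpart of human FGF19, had 0.648 to 1.91 TPM in the kidneys and 0 counts in both ureters, at least 11.3-fold lower. Calls of Fgf15 and Fgf20 were lost when the comparison was limited to the 4 libraries whose column names share a code between tissues.

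Fgf1 and Fgf2, which lack a classical secretion signal, were not called. Fgf1 was the ligand with the highest TPM in every kidney library and in the WT ureter it was level with Fgf7. It had 22.6 and 31.8 TPM in the KO kidneys, 31.8 and 26.7 TPM in the WT kidneys, 12.9 TPM in the KO ureter and 21.8 TPM in the WT ureter. The log2 fold change was -0.36 (SE 0.20, adjusted p = 0.194 by edgeR). Fgf1 was called lower with limma on log2(FPKM + 0.1), at -0.65 (adjusted p = 0.0489). Fgf2 had 2.81 and 1.86 TPM in the KO kidneys, 1.83 and 2.07 TPM in the WT kidneys, 4.93 TPM in the KO ureter and 2.31 TPM in the WT ureter, and the tissues overlapped on this scale. Its log2 fold change was 1.08 (SE 0.54, adjusted p = 0.154 by edgeR).

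Summed over the 18 secreted ligand genes, the TPM of the tissues overlapped, with 56.9 to 67.7 TPM in kidney, 50.5 TPM in the KO ureter and 63.6 TPM in the WT ureter. The makeup differed. Fgf7 took 0.81% to 1.27% of this sum in kidney, 30.4% in the KO ureter and 34.2% in the WT ureter. Fgf8 took 22.2% to 26.0% in kidney and 0% in the ureters, and Fgf1 took 39.7% to 50.3% in kidney, 25.5% in the KO ureter and 34.3% in the WT ureter.

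The kinase receptors differed by gene. Fgfr1 had 103 and 105 TPM in the KO kidneys, 114 and 92.9 TPM in the WT kidneys, 38.2 TPM in the KO ureter and 41.1 TPM in the WT ureter. It was lower in ureter without overlap (log2 fold change -1.02, SE 0.12, adjusted p = 0.000998 by edgeR). Fgfr2, the receptor of Fgf7 and Fgf10 in epithelium, had 85.2 and 87.4 TPM in the KO kidneys, 87.4 and 73.7 TPM in the WT kidneys, 37.1 TPM in the KO ureter and 47.0 TPM in the WT ureter. Its log2 fold change was -0.62 (SE 0.12, adjusted p = 0.00697 by edgeR), and the call was lost without the KO ureter.

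Fgfr4 showed the largest fold among the receptors. It had 22.2 and 20.8 TPM in the KO kidneys, 24.5 and 20.6 TPM in the WT kidneys, 0.278 TPM in the KO ureter and 0.522 TPM in the WT ureter, resting on 17 and 49 counts. This was 42.0-fold lower in ureter (log2 fold change -5.39, SE 0.25, adjusted p = 2.91e-05 by edgeR). Fgfr3 had 22.1 and 17.0 TPM in the KO kidneys, 19.3 and 21.1 TPM in the WT kidneys, 17.9 TPM in the KO ureter and 36.7 TPM in the WT ureter. On the CPM scale both ureters lay above all kidneys (47.2 and 85.9 CPM against 33.2 to 42.4 CPM), while in TPM the KO ureter lay within the kidney range. Fgfr3 was called higher (log2 fold change 0.75, SE 0.20, adjusted p = 0.0249 by edgeR), but the call was lost in 7 of 14 alternative settings: scaling by library size alone, limma on FPKM with either pseudocount, and without KO kidney replicate 2, WT kidney replicate 1, WT kidney replicate 2 or the WT ureter. Fgfrl1, which encodes a receptor without a kinase domain that mice need to form kidneys, had 24.5 to 33.9 TPM in kidney, 10.9 TPM in the KO ureter and 16.9 TPM in the WT ureter (log2 fold change -0.73, SE 0.15, adjusted p = 0.00846 by edgeR, lost without the KO ureter).

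As shares of the summed TPM of Fgfr1 to Fgfr4, Fgfr4 made up 9.03% to 9.96% in kidney and 0.30% and 0.42% in the KO and WT ureters. Fgfr3 made up 7.41% to 10.1% in kidney, 19.2% in the KO ureter and 29.3% in the WT ureter. Fgfr2 held a like share in all 6 libraries, from 35.4% to 39.7%. The sum itself was 208 to 246 TPM in kidney, 93.5 TPM in the KO ureter and 125 TPM in the WT ureter.

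**Figure D2:**
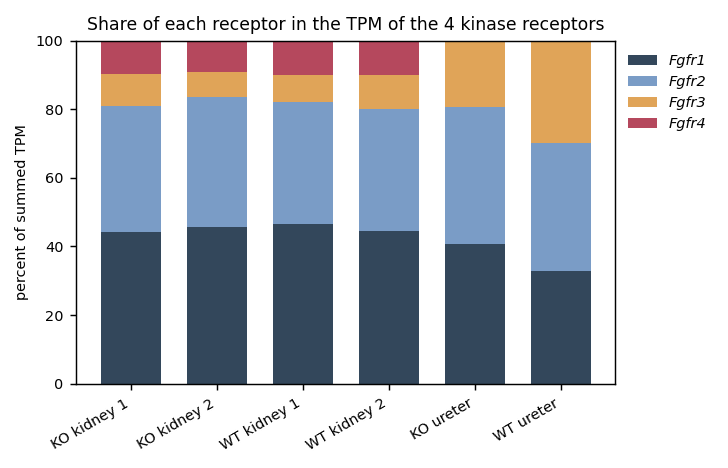
Bars show each receptor's percent of the summed TPM of Fgfr1 to Fgfr4 in each library, from 0 to 100. Fgfr4 is visible in the 4 kidney bars and nearly missing from both ureter bars, where Fgfr3 takes 19.2% and 29.3%.

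Kl, the co-receptor for FGF23, had 38.8 and 20.6 TPM in the KO kidneys, 27.3 and 39.1 TPM in the WT kidneys, 3.55 TPM in the KO ureter and 2.95 TPM in the WT ureter. It was 7.37-fold lower in ureter (log2 fold change -2.88, SE 0.33, adjusted p = 0.000911 by edgeR). The ureter libraries had 354 and 445 counts of Kl while the tubule genes Slc34a1, Slc12a1, Slc12a3 and Umod were listed at 0 there. Its ligand gene Fgf23 had at most 12 counts in any library, and Klb, the co-receptor for Fgf15, also had at most 12 counts and 0 in the ureters. Of the 8 phosphate and vitamin D genes, which lie downstream of FGF23 in the tubule, 7 were lower in ureter and none was higher, where 23.7% of all genes were lower. Of the 8, 4 were listed at 0 in both ureters. Slc34a1 is also 1 of the kidney markers, so this count is not independent of the check of the tissue labels.

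Fgfbp1 and Fgfbp3 encode secreted carriers that release FGFs from heparan sulfate. Fgfbp1 had 8.39 and 12.8 TPM in the KO kidneys, 9.36 and 8.11 TPM in the WT kidneys, 0.412 TPM in the KO ureter and 0 TPM in the WT ureter (log2 fold change -5.31, SE 1.01, adjusted p = 0.00679 by edgeR). Fgfbp3 had 8.24 to 10.1 TPM in kidney and 4.86 and 5.32 TPM in the KO and WT ureters, and was not called (log2 fold change -0.42, SE 0.20, adjusted p = 0.141 by edgeR). It was called lower with library size alone (adjusted p = 0.0348 by edgeR) and with limma on FPKM at both pseudocounts (adjusted p = 0.0193 and 0.0195). Of the docking genes, Frs2 was level across tissues on the CPM scale, with 52.5 to 58.6 CPM in kidney, 56.9 CPM in the KO ureter and 53.8 CPM in the WT ureter (log2 fold change -0.03, SE 0.0982, adjusted p = 0.823 by edgeR). In TPM both ureters lay below all kidneys, with 15.3 and 16.5 TPM against 19.9 to 22.3 TPM. Frs3 had 9.13 to 11.6 TPM in kidney and 2.24 and 3.20 TPM in the KO and WT ureters and was lower (log2 fold change -1.54, SE 0.23, adjusted p = 0.00254 by edgeR). Dusp6, an ERK phosphatase induced by FGF signalling, had 93.9 and 74.6 TPM in the KO kidneys, 82.0 and 82.1 TPM in the WT kidneys, 40.1 TPM in the KO ureter and 30.9 TPM in the WT ureter. It was lower in ureter without overlap (log2 fold change -0.85, SE 0.15, adjusted p = 0.00538 by edgeR).

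The intracellular FGFs varied among themselves. Fgf12 had 2.07 to 2.99 TPM in kidney and 0.246 and 0.357 TPM in the KO and WT ureters and was lower (log2 fold change -2.42, SE 0.32, adjusted p = 0.00161 by edgeR). Fgf11 and Fgf13 were not called (adjusted p = 0.178 and 0.990 by edgeR), and for both the KO ureter lay below and the WT ureter within or above the kidney range. Fgf11 was called lower in the libraries sharing a column code between tissues, with a log2 fold change of -1.34. Without the WT ureter its log2 fold change was -2.63. Fgf14 did not pass the filter, with 0 and 0 counts in the KO kidneys, 10 and 8 counts in the WT kidneys, 6 counts in the KO ureter and 120 counts in the WT ureter.

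**Figure D3:**
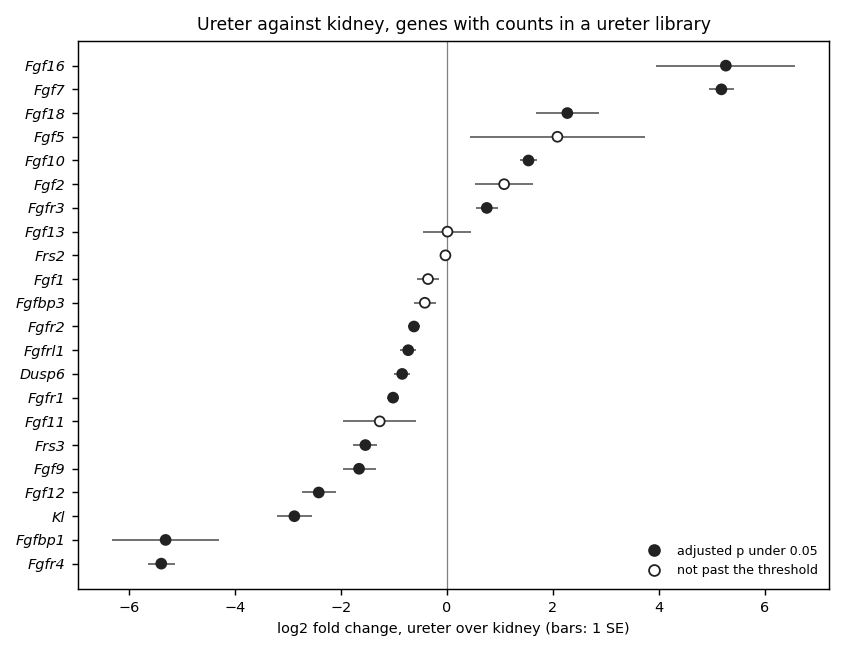
Points give the log2 fold change of ureter over kidney for the 22 FGF genes tested that had counts in a ureter library, with bars of 1 standard error. Filled points passed an adjusted p of 0.05 in edgeR, with Fgf7 at 5.18 and Fgfr4 at -5.39 near either end.

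Libraries of the tissues did not overlap for 14 FGF genes that were lower and 7 that were higher in ureter among the 28 tested, while 61.0% of all genes tested did not overlap. Scaling by library size alone moved the median of all genes to -0.36 and the share of called genes that were higher from 47.4% to 28.0%. None of the 18 called FGF genes changed direction in 14 alternative settings, and 11 of them passed the threshold in all 14.

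The second comparison asked whether loss of Ahnak changed FGF genes in kidney. No FGF gene passed the test. Of the 26 tested (edgeR's quasi-likelihood test, 2 against 2 libraries, 2 residual degrees of freedom), 0 were called by edgeR, DESeq2 or limma, where 0.0121% of the 16481 genes tested were called by edgeR. In simulated data with the common dispersion of this fit, 25% of changes of 1 on the log2 scale were called, and 93% of changes of 2. Absence of a call thus does not show absence of a change of 2-fold or less. At an unadjusted p under 0.05 there was 1 FGF gene, Fgf4, against 1.38% of all genes. The log2 fold changes, KO over WT, lay within 0.5 of 0 for 22 of the 26, with 14 above 0 and 12 below. Their median was 0.04, against 0.00 over all genes. Both KO kidneys lay below both WT kidneys for 6 of the 26 and above them for 3, where 26.3% of all genes did not overlap either way.

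The kinase receptors had small differences with narrow errors. The log2 fold change of KO over WT kidney was 0.03 for Fgfr1 (SE 0.13), 0.15 for Fgfr2 (SE 0.12), -0.05 for Fgfr3 (SE 0.16) and -0.04 for Fgfr4 (SE 0.14). The genotypes overlapped for all 4, each with an adjusted p of 0.9999 by edgeR. Fgfrl1 was lower in both KO libraries, with 35.2 and 31.4 CPM against 35.7 and 41.4 CPM (log2 fold change -0.21, SE 0.14). Among ligand genes, the genotypes overlapped for Fgf1 and Fgf9, with log2 fold changes of -0.07 (SE 0.21) and -0.05 (SE 0.20). Fgf8 was lower in both KO libraries, with 7.51 and 7.47 CPM against 8.96 and 7.99 CPM (log2 fold change -0.18, SE 0.20). Fgf7 and Fgf10 were higher in both KO libraries, by 0.37 (SE 0.54) and 0.21 (SE 0.18) on the log2 scale. None of these differences passed the test.

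Low ligands had wider errors. Fgf4, a ligand best known from early embryo and limb, had 0 counts in both KO kidneys and 17 and 14 counts in the WT kidneys, at least 4.64-fold lower against the limit of 3 counts per library. Its unadjusted p was 0.0110 and its adjusted p 0.9999 by edgeR. Fgf18 had 0.413 and 0.539 CPM in the KO kidneys and 1.15 and 0.558 CPM in the WT kidneys (log2 fold change -0.84, SE 0.67). Fgf20 had 0.645 and 0.673 CPM in the KO kidneys and 0.759 and 1.15 CPM in the WT kidneys (log2 fold change -0.53, SE 0.57).

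Kl and Fgf11 varied more within a genotype than between genotypes. Kl had 92.1 and 50.9 CPM in the KO kidneys and 64.8 and 92.9 CPM in the WT kidneys (log2 fold change -0.14, SE 0.30). Fgf11 had 21.9 and 9.76 CPM in the KO kidneys and 8.96 and 21.2 CPM in the WT kidneys (log2 fold change 0.07, SE 0.50). For both genes KO replicate 1 and WT replicate 2 were high and the other pair low, so the genotypes overlapped. Of the 10 kidney markers, 7 were also higher on the CPM scale in these 2 libraries than in the other pair. Among them was Slc34a1 with 319 and 299 CPM against 209 and 210 CPM. Umod and Cited1 were lower in these 2 libraries, Cited1 with 55.7 and 59.0 CPM against 59.2 and 59.4 CPM. Across 16481 genes the deviations of KO replicate 1 and WT replicate 1 from their genotype means had r = -0.28. The split was thus not particular to these genes, and the share of all genes that followed it was not counted. Whether the makeup of the tissue contributed to the Kl and Fgf11 values was not tested.

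The third comparison set the KO ureter beside the WT ureter. With 1 library per genotype no test was possible, and values compare these 2 libraries only. A ratio past 2-fold on the scale of CPM + 0.5 was used to name genes, and 23 of the 34 FGF genes had at least 10 counts in either library. Of these, 3 were past 2-fold lower in the KO ureter (Fgf11, Fgf13 and Fgf14) and 0 were past 2-fold higher, where 5.75% of 16117 genes were past 2-fold lower and 4.50% higher. The median log2 ratio was -0.23 over the 23 FGF genes and -0.02 over all genes.

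All 3 of these are intracellular FGFs. Fgf11 had 76 counts in the KO ureter and 625 counts in the WT ureter, or 1.47 and 8.09 TPM, which is 4.75-fold lower in KO (95% interval 3.74 to 6.11, exact binomial, counting error only). Fgf13 had 42 and 271 counts, or 0.861 and 3.67 TPM, 3.72-fold lower (interval 2.68 to 5.29). Fgf14 had 6 and 120 counts, or 0.0798 and 1.27 TPM, 11.5-fold lower (interval 5.15 to 32.1). The fourth, Fgf12, had 30 and 66 counts, and its interval included 1. Of the 8 striated muscle markers 6 were past 2-fold lower in the KO ureter as well, with none at 0, and their sum was 172 TPM in the KO ureter against 471 TPM in the WT ureter. Of the 6 nerve markers 1 was past 2-fold lower, and their sum was 16.5 TPM against 21.7 TPM. The part of other cells in the Fgf11, Fgf13 and Fgf14 values was not tested.

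Among receptors Fgfr3 had the largest difference, with 47.2 CPM in the KO ureter and 85.9 CPM in the WT ureter, 1.82-fold lower in KO (interval 1.71 to 1.93). Its log2 ratio was -0.85 on the CPM + 0.5 scale and -1.05 with library size alone, past 2-fold there. Fgfr1 and Fgfr2 differed little, with log2 ratios of 0.12 and -0.13, and Fgfr4 had -0.41 on 17 and 49 counts. Fgfrl1 had a log2 ratio of -0.50. Ligands divided. Fgf1, Fgf7 and Fgf10 were lower in the KO ureter, with log2 ratios of -0.56, -0.31 and -0.23, and Fgf9, Fgf16, Fgf18 and Fgf2 were higher, with 0.89, 0.81, 0.75 and 0.91. Fgf7 had 797 counts in the KO ureter and 1715 counts in the WT ureter, or 26.8 and 33.3 CPM, so the gap was smaller once scaled to library size. Kl and Dusp6 had log2 ratios of 0.44 and 0.56. Kidney and fat markers also differed between these 2 libraries. Of 4 kidney markers compared, 2 were past 2-fold higher in the KO ureter and 1 was past 2-fold lower. Cited1 had 153 counts in the KO ureter and 24 in the WT ureter, while Six2 had 0 and 55. Of 5 fat markers compared, 2 were past 2-fold higher and 0 lower, with Adipoq at 170 and 18 counts. The part of kidney or fat cells in the FGF values of the ureters was not tested.

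**Figure D4:**
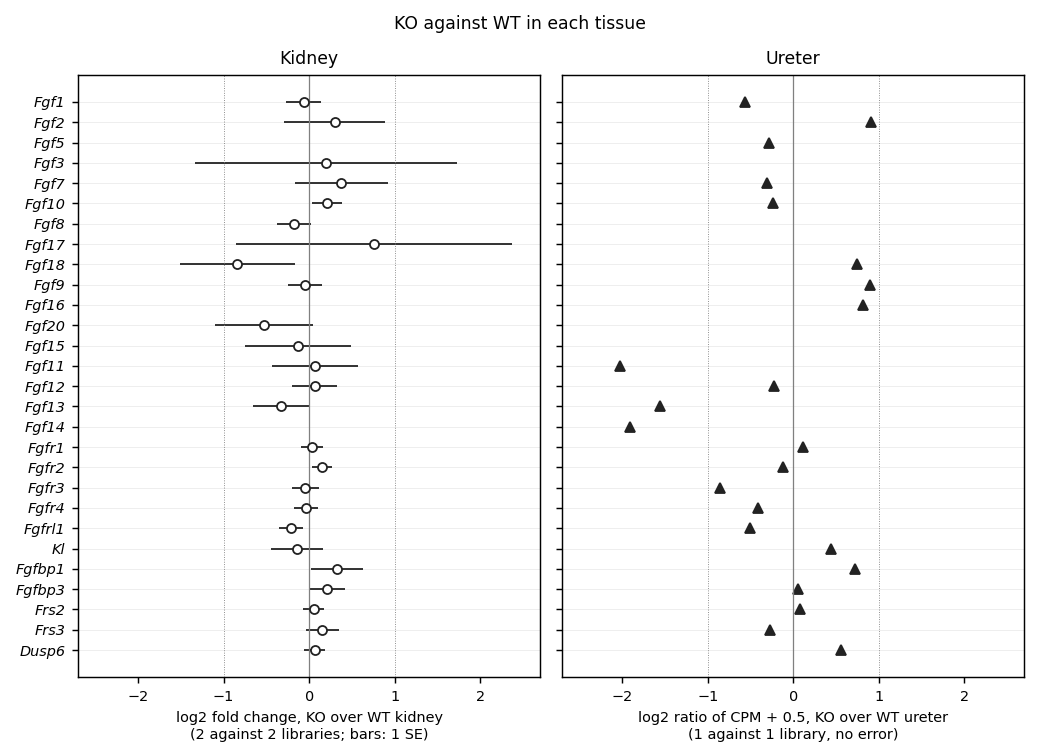
Left, log2 fold change of Ahnak KO over WT kidney with bars of 1 standard error (2 against 2 libraries), and right, log2 ratio of CPM + 0.5 of the KO over the WT ureter (1 against 1, no error) for the FGF genes with values. Dotted lines mark 2-fold, and Fgf11, Fgf13 and Fgf14 lie beyond it in ureter, while none of the kidney points drawn does. Fgf4, with 0 counts in both KO kidneys, is left out of the kidney panel.

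The difference between the genotype effects of both tissues was tested with an interaction term over all 6 libraries, in which the single ureter libraries were assumed to vary like kidney libraries. Of 30 FGF genes tested 0 were called by edgeR, DESeq2 or limma, and the unadjusted p was under 0.05 for 4 (Fgfbp1, Fgfr3, Fgf9 and Fgf13), where 0.108% of 17557 genes were called and 12.4% had such a p. The genotype effect in ureter minus that in kidney was -0.82 for Fgfr3 (SE 0.27, adjusted p = 0.308 by edgeR), 1.07 for Fgf9 (SE 0.38, adjusted p = 0.337) and -1.57 for Fgf13 (SE 0.58, adjusted p = 0.358). For Fgfbp1, with 11 counts in the KO ureter and 0 in the WT ureter, the adjusted p was 0.184. Fgf11 had -2.32 (SE 0.94, adjusted p = 0.404). In simulated data with the common dispersion of this fit, 0% of changes of 1 on the log2 scale were called, and 25% of changes of 2. Absence of a call here is thus weak evidence of a like genotype effect in both tissues.

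Other genes of the pathway were read from lists. Of 14 FGF response and feedback genes besides Dusp6, 3 were higher and 5 lower in ureter, beside 21.4% and 23.7% of all genes tested. The median log2 fold change was -0.55 over the list and -0.08 over all genes. Etv4, an ETS factor induced by FGF, had 72.2 to 84.1 TPM in kidney and 4.09 and 2.42 TPM in the KO and WT ureters (log2 fold change -4.19, SE 0.28, adjusted p = 9.36e-05 by edgeR). The antagonists Il17rd and Spry4 were lower, with log2 fold changes of -2.17 and -1.63 (SE 0.16 and 0.14). Flrt3, a membrane partner of FGF receptors, Flrt1 and Spred2 were higher, with 1.32, 0.88 and 0.74 (SE 0.12, 0.19 and 0.14). The call of Flrt1 was lost with library size alone, with limma at both pseudocounts, without the WT ureter and in the matching code libraries (adjusted p between 0.0515 and 0.106), and that of Spred2 without the KO ureter (adjusted p = 0.0576).

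Spry1, a Sprouty antagonist needed for normal kidney and ureter branching, falls outside the naming rule and was chosen after its values were seen. It had 95.8 and 112 CPM in the KO kidneys, 103 and 93.9 CPM in the WT kidneys, 36.8 CPM in the WT ureter and 1.68 CPM in the KO ureter. The KO ureter had 50 counts and the WT ureter 1894, 21.9-fold lower in KO (95% interval 16.5 to 29.6, exact binomial, counting error only), while the kidney genotypes overlapped. The genotype effect in ureter minus that in kidney was -4.53 (SE 0.26, adjusted p = 0.0131 by edgeR). The call was lost with limma on FPKM (adjusted p = 0.108 and 0.174), without WT kidney replicate 1 (adjusted p = 0.0743) and without WT kidney replicate 2 (adjusted p = 0.0527), and over all 10 alternatives the adjusted p ran from 1.46e-37 to 0.174. Other feedback genes of the KO ureter did not share this ratio: Spry2 and Spry4 were 1.66-fold and 1.28-fold lower, and Etv4 and Dusp6 had 1.93 and 1.48 times the WT level. Spred3 was 3.22-fold lower (interval 2.73 to 3.81), the only other gene of the list past 2-fold. The value rests on 1 KO ureter library, in which Rn45s took 8.06% of counts, and whether that bears on it was not tested.

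**Figure D5:**
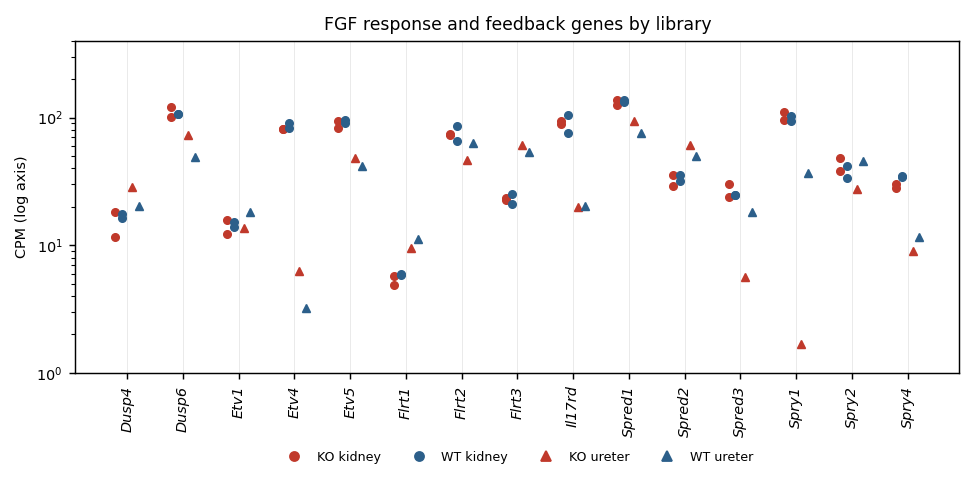
CPM on a log axis for the 14 FGF response and feedback genes and Dusp6. Each point is 1 library (circles kidney, triangles ureter, red Ahnak KO, blue WT), and the Spry1 point of the KO ureter, at 1.68 CPM, lies far below the WT ureter at 36.8 CPM.

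Of 19 genes of the RAS-MAPK cascade, 6 were higher and 3 lower in ureter, a share near the 45.0% of all genes called, with a median log2 fold change of 0.05. The largest of these were 0.94 for Mapk3, which encodes ERK1 (SE 0.0927), and -0.78 for the docking gene Gab2 (SE 0.13). Of 25 heparan sulfate genes tested, 5 were higher and 9 lower, beside 21.4% and 23.7% of all genes. Sdc1, the main syndecan of epithelium, and Sulf1, which removes sulfate groups, were higher, with log2 fold changes of 3.40 and 3.03 (SE 0.18 and 0.18). Gpc5 and the sulfotransferase Hs6st2 were lower, with -3.53 and -1.85 (SE 0.36 and 0.32).

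In kidney 0 genes of these lists were called between genotypes by edgeR. Ndst1, which starts the sulfation of heparan sulfate, had the smallest p among them and is named for that after its values were seen. It had 35.9 and 40.3 TPM in the KO kidneys, 15.4 and 7.29 TPM in the WT kidneys, 9.14 TPM in the KO ureter and 23.1 TPM in the WT ureter. Its log2 fold change in kidney was 1.79 (SE 0.34, unadjusted p = 0.00168 and adjusted p = 0.865 by edgeR's test across all genes). With 1 library left out its adjusted p was 0.0303 (KO replicate 1), 0.0529 (KO replicate 2), 0.0331 (WT replicate 1) and 0.347 (WT replicate 2, log2 fold change 1.34), and it was 0.221 with DESeq2. No setting on all 4 kidney libraries called it. In ureter the log2 ratio was -1.13, opposite to kidney.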

How the data were processed

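RNA of mouse kidney and ureter was sequenced in 6 libraries, and the authors deposited 1 table with 24532 genes, with an estimated count (a whole number), an FPKM value and a TPM value per library. The sources disagree on how it was made. The methods name Cutadapt, STAR, Cufflinks and GRCm39 with a stranded mRNA kit, and the submitters' processing notes name Trimmomatic 0.38, HISAT2 2.1.0, StringTie 1.3.4b, edgeR and mm10. The deposited counts are not normalized, and the deposited FPKM and TPM are the authors' own normalization. A listed 0 does not show that no read was sequenced.

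The quasi-likelihood test of edgeR 4.0.16 in R 4.3.3 was applied to the estimated counts after TMM scaling and filterByExpr, with Benjamini-Hochberg adjustment over all genes tested and a threshold of 0.05. Ureter against kidney was fitted on all 6 libraries with genotype and tissue, KO against WT kidney on the 4 kidney libraries, and the difference of the genotype effects with an interaction term. Standard errors (SE) are approximate, from the fold change on the log2 scale and the root of the F statistic. The ureter libraries were compared by log2 ratios of CPM + 0.5, with exact binomial intervals for counts. CPM in the text uses TMM factors over all 6 libraries. Alternatives were DESeq2 1.42.0, its size factors, library size alone, no filter, limma 3.58.1 on log2(FPKM + 1) and log2(FPKM + 0.1), leaving out each library, no genotype term, a replicate block, and, added after the data were examined, a crossed block and the libraries with a matching column code. The scripts were tested on simulated data.

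The genes and lists were chosen with earlier results of these data known. All genes given by the symbol rule are accounted for, those with at least 1 TPM in some library by value, and from other lists the called genes with the largest changes are named. Promoter windows were matched by symbol to RefSeq on GRCm38.p6. Libraries held 36410246 to 66095616 counts. Same-numbered kidney libraries did not deviate together (r = -0.28 across genes, which are not independent), so replicate numbers were not used to pair them.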

Additional observations from a re-analysis of the deposited data

Results flagged for a closer look

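Spry1 passed the test of a difference between tissues in its genotype effect in the reported setting: the effect in ureter minus that in kidney was -4.53 on the log2 scale (adjusted p = 0.0131 by edgeR's interaction test), with 50 counts in the KO ureter and 1894 in the WT ureter. The call was lost with limma on FPKM (adjusted p = 0.108 and 0.174) and without WT kidney replicate 1 (0.0743) or WT kidney replicate 2 (0.0527). Each ureter value is 1 library, and Rn45s took 8.06% of the counts of the KO ureter.

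For 4 genes the KO ureter lay on the opposite side of the WT ureter from the side of both KO kidneys, a pattern of signs that was not itself tested. Fgf7 had a log2 ratio of -0.31 and Fgf10 of -0.23 in ureter, while both KO kidneys were above both WT kidneys. Fgf18 had 0.75 in ureter, with both KO kidneys below both WT kidneys. Ndst1 had -1.13 in ureter, with both KO kidneys above both WT kidneys. In the interaction test none of the 4 passed the threshold, with adjusted p of 0.502 for Fgf7, 0.564 for Fgf10, 0.521 for Fgf18 and 0.174 for Ndst1 by edgeR.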

How the results depend on the processing

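In the tissue comparison the number of FGF genes called higher was 5 and ran from 3 to 6 over 14 alternative settings, and the number called lower was 13 and ran from 11 to 15. Leaving out 1 library at a time gave 3 to 4 genes called higher. In kidney and in the interaction test 0 FGF genes were called in every setting. With a replicate block 0 FGF genes were called in kidney and 0 of all genes against 2 without it, and with the crossed pairing 1 of all genes was called. In ureter a pseudocount of CPM + 0.1 and log2(FPKM + 0.1) each gave 2 genes past 2-fold higher (Fgf2 and Fgfbp1) in place of 0.

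Some log2 values near 0 changed sign, none of them called, and the cause was not tested. Ureter over kidney, Fgf13 went from 0.01 to -0.26 with library size alone, -0.10 with limma on FPKM and a pseudocount of 1, -0.31 with a pseudocount of 0.1, and -0.13 with the matching code libraries, and leaving out 1 library at a time gave -0.87 (without the WT ureter) to 0.70. Frs2 went from -0.03 to 0.012 with the matching code libraries and to between -0.061 and 0.0078 with 1 library left out. KO over WT kidney with 1 library left out, Fgf11 ran from -0.62 to 0.82, Kl from -0.63 to 0.22, Fgfr1 from -0.11 to 0.19, Fgfr3 from -0.23 to 0.11 and Fgfr4 from -0.16 to 0.087. Each ureter value is 1 library per genotype, and each kidney group has 2, which limits the precision of every genotype comparison.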
